A study of Rattus norvegicus with 3 samples.

Results

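Glycolysis and glycogen metabolism were followed through 32 genes, listed by symbol when earlier results of these data were already known. They cover the enzymes that take glucose to lactate, their muscle and ubiquitous isoforms, and the enzymes that build, break down and regulate glycogen. Of these, 31 had a probe set assigned to 1 gene symbol, out of 14506 genes measured in that way, and Ppp1r3c was not analysed here. RNA from tibialis anterior, a fast muscle of the lower leg, was hybridised to whole-transcript arrays. All animals were male Wistar rats aged 11 weeks that ate a diet with 45% of energy from fat for 3 weeks, and all muscles were electroporated with plasmid DNA (150 µg) after 2 weeks of the diet and taken 8 days later. The 3 groups differed in plasmid: pcDNA3.1 without an insert (empty vector), pENTR-CMV-Plin2 or pcDNA3.1-CMV-Plin5. Plin2 (ADRP) and Plin5 (OXPAT) encode proteins that coat lipid droplets. The CMV promoter that drives them is not specific to muscle fibres, and the Plin2 plasmid also differs from the other plasmids in its backbone. Each group was 1 array of RNA pooled from 6 rats. No spread between animals or arrays could therefore be measured, no difference below was tested, and the number of arrays limits the precision.

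Glucose entering a muscle fibre is phosphorylated by hexokinase and then either broken down to pyruvate and lactate for ATP or stored as glycogen. Glycogen phosphorylase releases the stored glucose when phosphorylase kinase, which answers calcium and adrenaline, switches it on; protein phosphatase 1, held on the glycogen particle by targeting subunits, switches it off and activates glycogen synthase. Fast fibres depend heavily on this pathway and use their own isoforms of several enzymes, where most other cells use the ubiquitous ones.

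The introduced genes were highest on their own arrays. Plin2 stood at a log2 level of 9.99 with the empty vector, 10.70 with Plin2 and 10.08 with Plin5, and Plin5 at 7.52, 6.79 and 8.30 in that order. The tissue label was borne out by the fast fibre markers, which include Myh4 and Ckm: all 11 measured stood at 12.66 or above on the empty vector array, against a level of 5.34 under which a gene was called dim. All 31 glycolysis and glycogen genes passed that dim filter, the lowest with a mean of 7.76. Other cell types moved with the groups as well. On the Plin2 array 14 of 14 macrophage markers were above the empty vector, and their mean log2 level was 9.48 on the empty vector array, 10.62 on the Plin2 array and 9.02 on the Plin5 array (summed unlogged signal 14043, 29595 and 11263). Regeneration markers had mean levels of 9.73, 10.69 and 9.21 in the same order (summed signal 8368, 16601 and 6104; 7 of 7 higher on Plin2), lymphocyte markers 7.61, 8.56 and 7.55 (summed signal 4961, 9916 and 4736; 11 of 12 higher on Plin2), and fast fibre markers 13.40, 13.09 and 13.44 (summed signal 121258, 101372 and 123754; 11 of 11 lower on Plin2). The part of these shifts in the results below was not tested. Of the fast fibre markers, only Myh2 (mean level 12.41, −0.98 on Plin2) and Pvalb (12.88, −0.60) were lower by at least 1.5-fold. All the others had mean levels of 13 or more, where no gene passed 1.5-fold. The size of the fast fibre shift is therefore uncertain, and its summed signal adds levels of different probe sets. In pooled tissue RNA, fewer cells of a type and less RNA per cell cannot be told apart.

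On the Plin2 array the pathway was lower as a group. Of the 31 genes, 14 were lower than with the empty vector by at least 1.5-fold and 1 was higher by that amount, while among all 10879 genes past the dim filter 5.8% were lower and 8.84% were higher. Of the 31, 27 were below the empty vector and 3 above it, against 31.7% and 38.3% of all genes. The median difference over the 31 genes was −0.42 on the log2 scale, against 0.00 over all genes. By count the glycogen genes held most of it. Of the 10 measured, 8 were lower by at least 1.5-fold (median −0.81), compared with 6 of the 21 others (median −0.25). These groups differ in make-up, since the others include Pfkl, Pfkp and Pgam1, which were higher. The others also hold every member with a mean level of 13 or more except Pygm, and no gene at that level passed 1.5-fold. The part of signal level in this contrast was not tested. The 6 genes that were lower by at least 2-fold were Pfkfb1, Fbp2 and 4 that regulate glycogen enzymes (Phkg1, Ppp1r3a, Phka1 and Phkb).

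**Figure D1:**
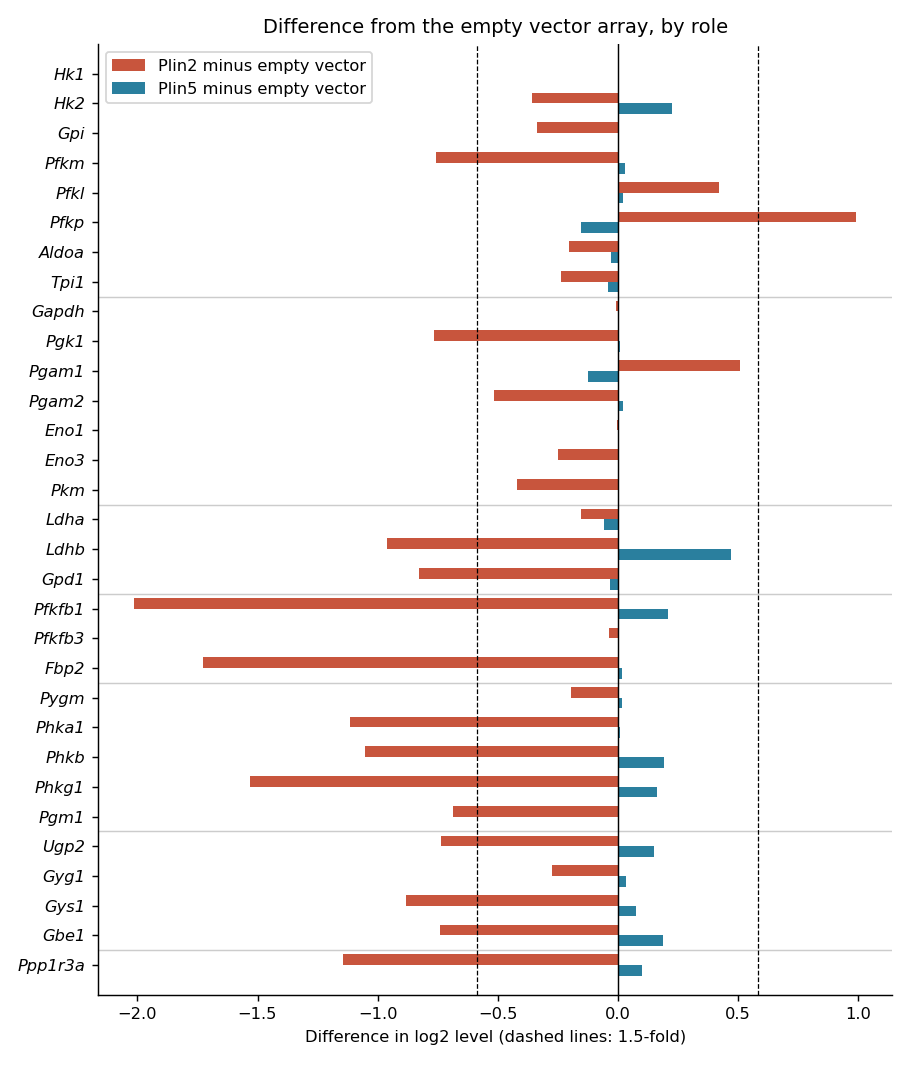
Difference in log2 level from the empty vector array (x axis) for each of the 31 measured genes, grouped by role from hexokinase at the top to glycogen phosphatase targeting at the bottom; each bar is 1 array minus 1 array, and dashed lines mark 1.5-fold. Most Plin2 bars point down, the longest being Pfkfb1 at −2.01, and no Plin5 bar reaches a dashed line.

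Over the probe sets used here, 2 enzymes that control fructose bisphosphates had the largest Plin2 differences. Pfkfb1, a bifunctional enzyme that makes and removes fructose 2,6-bisphosphate, the main activator of phosphofructokinase, stood at 10.26 with the empty vector, 8.25 with Plin2 and 10.47 with Plin5. Its difference on Plin2 was −2.01 (4.04-fold lower). Fbp2, the muscle fructose bisphosphatase that runs the phosphofructokinase step backwards, stood at 9.60, 7.87 and 9.61, a Plin2 difference of −1.73 (3.31-fold lower). Both genes were thus low on the Plin2 array alone. Pfkfb3, the inducible enzyme of the same family as Pfkfb1, was at 8.86, 8.83 and 8.86, so enzymes of the same family did not share a difference.

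Phosphorylase kinase was lower in each of its 3 subunits among the members. Its catalytic subunit Phkg1 stood at 10.14 (empty vector), 8.61 (Plin2) and 10.30 (Plin5), a Plin2 difference of −1.53 (2.89-fold lower). The regulatory subunit Phka1 stood at 12.38, 11.27 and 12.39, lower by 2.16-fold on Plin2 (−1.11), and the regulatory subunit Phkb at 11.15, 10.10 and 11.34, lower by 2.07-fold (−1.05). The enzyme on which the kinase acts looked different. Pygm, muscle glycogen phosphorylase, stood at 13.70, 13.50 and 13.71, a Plin2 difference of −0.19 at a level near the top of the scale. Pgm1, phosphoglucomutase, which converts the released glucose 1-phosphate, stood at 12.24, 11.56 and 12.25 (−0.69 on Plin2).

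Genes of glycogen synthesis were low on the same array. Gys1, muscle glycogen synthase, stood at 11.82 with the empty vector, 10.94 with Plin2 and 11.89 with Plin5 (Plin2 difference −0.88, 1.84-fold lower). Ugp2, which makes the UDP-glucose that the synthase uses, stood at 12.11, 11.37 and 12.26 (−0.74), and the branching enzyme Gbe1 at 9.55, 8.81 and 9.74 (−0.74). In each of these genes the Plin2 array was the low one and the Plin5 array the highest. Gyg1, glycogenin, the protein primer of the particle, differed less, at 12.43, 12.16 and 12.46 (−0.27). Ppp1r3a, the muscle subunit that holds protein phosphatase 1 on glycogen, stood at 11.76, 10.61 and 11.86, lower by 2.21-fold on Plin2 (−1.15). Enzymes of both directions of glycogen turnover were thus lower together: 4 of 5 breakdown genes, 3 of 4 synthesis genes and the 1 measured targeting subunit passed 1.5-fold.

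**Figure D2:**
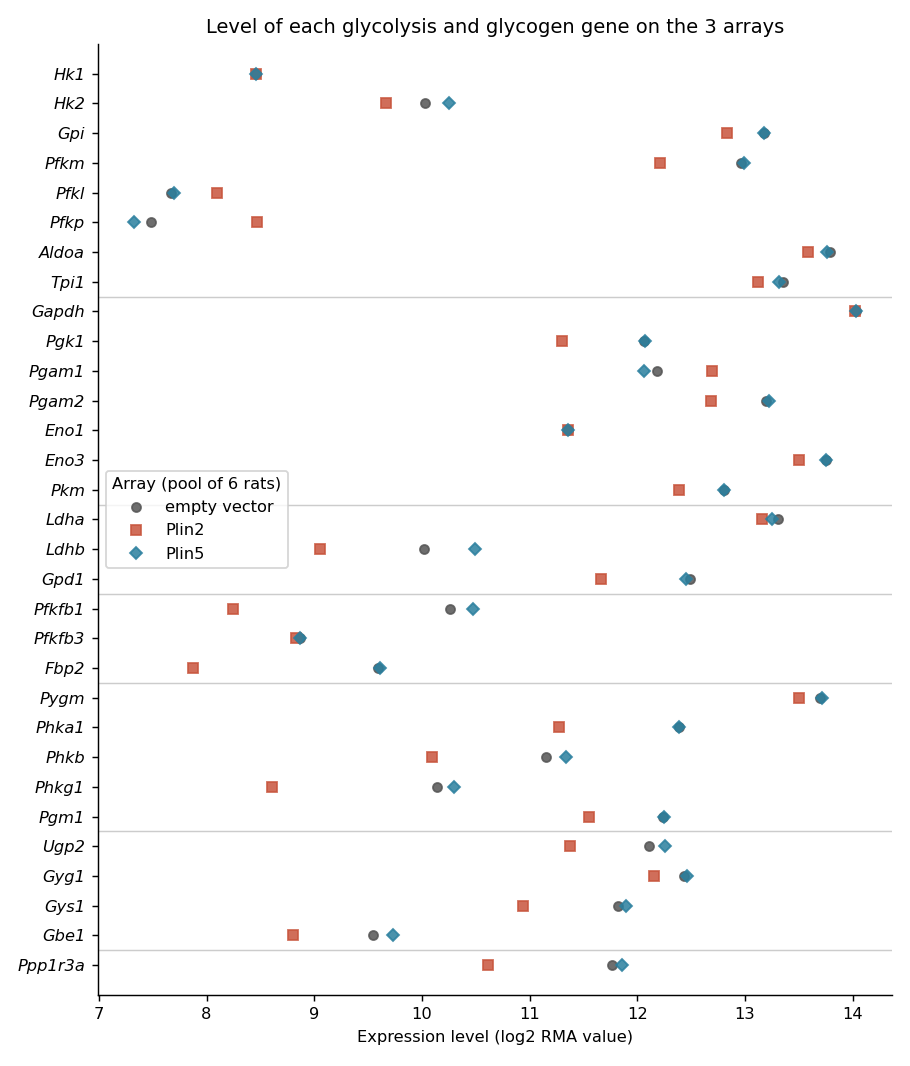
Log2 RMA level (x axis) of each measured gene on the empty vector, Plin2 and Plin5 arrays, 1 point per array and pool of 6 rats, in the order of roles; levels are to be read along a row, since levels of different probe sets are not comparable. Plin2 points lie to the left of the other arrays in most rows, and to the right in those of Pfkl, Pfkp and Pgam1.

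In the glycolytic chain the entry and upper steps went different ways by isoform. Hk2, the insulin-responsive hexokinase of muscle, stood at 10.02 with the empty vector, 9.67 with Plin2 and 10.25 with Plin5 (Plin2 difference −0.36). Hk1, the ubiquitous hexokinase, had exactly the same value, 8.46, on all 3 arrays. Such equality is common in these values: 30.0% of all genes past the dim filter were exactly equal between Plin2 and the empty vector, and Hk1 was the only one of the 31 genes to be so. Pfkm, the muscle subunit of phosphofructokinase, stood at 12.96, 12.21 and 12.99, lower by 1.69-fold on Plin2 (−0.76). The liver-type subunit Pfkl went the other way, at 7.67, 8.09 and 7.69 (0.42 on Plin2), as did the platelet-type subunit Pfkp, at 7.48, 8.47 and 7.33 (0.99, 1.99-fold higher). Pfkp was the 1 gene of the 31 that was higher by at least 1.5-fold. Gpi, which interconverts glucose and fructose 6-phosphate, stood at 13.17, 12.84 and 13.18 (−0.34). Aldoa, the muscle aldolase, stood at 13.79, 13.59 and 13.76 (−0.20), and Tpi1, triosephosphate isomerase, at 13.36, 13.12 and 13.32 (−0.24).

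Among the lower steps Pgk1, phosphoglycerate kinase, had the largest Plin2 difference, with levels of 12.07 (empty vector), 11.30 (Plin2) and 12.08 (Plin5), or −0.76. Pgam2, the muscle phosphoglycerate mutase, stood at 13.20, 12.68 and 13.22 (−0.51), whereas Pgam1, the ubiquitous form, stood at 12.18, 12.69 and 12.06 (0.51). The mutases thus lay on opposite sides of the empty vector, 1.43-fold lower and 1.42-fold higher in the deposited values. These sizes depended on the processing. After quantile normalization Pgam2 stood at −0.43 and Pgam1 at 0.62, and Pgam1 averaged over its probe sets stood at 0.25. Pgam2 also had a mean level of 13.03, and no gene at 13 or more passed 1.5-fold. Eno3, the muscle enolase, stood at 13.75, 13.50 and 13.75 (−0.25), and the ubiquitous Eno1 at 11.36, 11.35 and 11.36. Pkm, pyruvate kinase, stood at 12.81, 12.39 and 12.81 (−0.42). Gapdh, often used as a reference gene, stood at 14.03, 14.02 and 14.03, just under the highest value in the table, 14.04.

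At the branch to lactate and glycerol phosphate, Ldhb, the heart-type lactate dehydrogenase subunit of oxidative fibres, separated all 3 arrays. It stood at 10.02 with the empty vector, 9.06 with Plin2 (−0.96, 1.95-fold lower) and 10.49 with Plin5 (0.47, 1.39-fold higher). Part of the slow fibre markers moved with it: 5 of 8 were lower by at least 1.5-fold on Plin2, and the other 3, Tnni1 (0.01), Atp2a2 (0.03) and Casq2 (0.09), were slightly above the empty vector. Their mean log2 level was 11.00 with the empty vector, 10.23 with Plin2 and 11.23 with Plin5 (summed unlogged signal 21007, 14728 and 23861), and the part of slow fibres in the Ldhb result was not tested. Gpd1, the cytosolic dehydrogenase that makes glycerol 3-phosphate, the backbone of triglycerides, stood at 12.49, 11.66 and 12.45 (−0.83, 1.77-fold lower on Plin2).

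Ldha, the muscle-type lactate dehydrogenase subunit, depended on the probe set. The set used here, 10707137, stood at 13.31 with the empty vector, 13.16 with Plin2 and 13.25 with Plin5 (Plin2 difference −0.15). The other set named Ldha, 10908861, stood at 13.66, 8.09 and 13.68, a Plin2 difference of −5.57 (47.3-fold lower). That was the lowest Plin2 difference of all 29214 probe sets on the array, and the next lowest was −2.46. The first set was taken because its mean over the arrays is higher; on the empty vector array alone the other set was the brighter one. Both sets lay below the empty vector on the Plin2 array, but by amounts so unlike that no size can be given for Ldha.

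**Figure D3:**
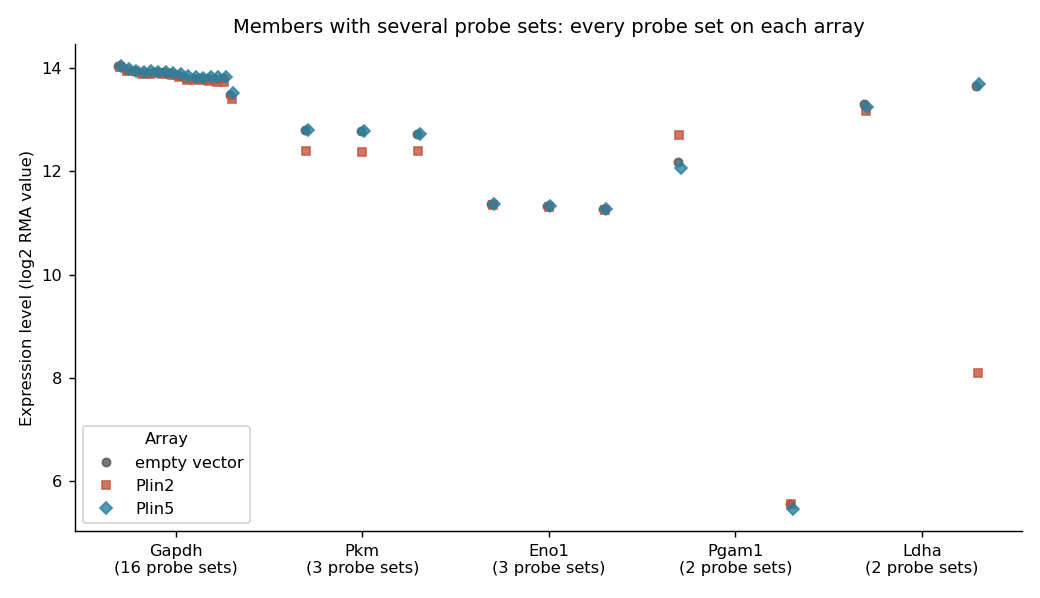
Log2 RMA level (y axis) on each array for every probe set of the 5 members that have more than 1 set, 1 marker per array. The 16 Gapdh sets, 3 Pkm sets and 3 Eno1 sets of a gene share their differences closely, whereas the Ldha sets differ on the Plin2 array, 13.16 in one and 8.09 in the other.

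The other genes with several probe sets were less divided. The 16 sets named Gapdh had Plin2 differences from −0.08 to −0.01, the 3 sets named Pkm from −0.42 to −0.33 and the 3 sets named Eno1 of −0.01 to 0.00. Pgam1 had a second set near the dim level, 5.56 on both the empty vector and Plin2 arrays, which did not share the 0.51 of the first. RefSeq names pseudogenes after 12 of the 31 genes, among them 81 for Gapdh, 31 for Eno1, 30 for Ldha, 19 for Pkm and 13 for Pgam1. Values of these genes are uncertain to the extent that the probes cannot tell a gene from its copies.

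Muscle isoforms were then set beside their counterparts, by subtracting the difference of one isoform from that of the other, which needs no comparison of levels between probe sets. Of 16 pairs listed, 14 were measured. In 13 of them the first-named is a muscle-type isoform; Pfkfb1 and Pfkfb3 are set side by side as members of 1 family. On the Plin2 array the muscle isoform lay below its counterpart in 12 of the 13, with a median gap of −0.95, and in 9 of them the gap was at least 1.5-fold. The pairs were not all separate, since Pfkm and Pygm each entered more than 1. The counterparts Hk1, Phkg2, Gys2, Aldoc and Ppp1r3b had exactly equal values on all 3 arrays. Eno1 (−0.004) and Fbp1 (0.03) hardly differed on Plin2. In those pairs the gap is almost entirely the muscle isoform's own difference. Aldoc stood at 6.10, Ppp1r3b at 6.86 and Gys2, which was dim, at 3.86. Pfkfb1 against Pfkfb3 stood at −1.98. Of the muscle isoforms, Fbp2 was farthest from its counterpart Fbp1, at −1.76, but Fbp1, the liver form, was dim (5.01, 5.04 and 5.04). Pfkm against Pfkp stood at −1.75 (3.36-fold) and Phkg1 against Phkg2 at −1.53, where Phkg2, the liver and testis form, had the same value, 9.12, on all 3 arrays. Muscle phosphorylase Pygm differed by −0.95 from the brain form Pygb, which stood at 8.75 with the empty vector, 9.50 with Plin2 and 8.44 with Plin5, and by −0.78 from the liver form Pygl (7.10, 7.69 and 7.10). The exception was Ldha against Ldhb at 0.81, whose sign turned to −4.60 with the other Ldha probe set. All 10 genes listed as muscle isoforms were below the empty vector (median −0.82), and of the 6 ubiquitous or other-tissue isoforms 3 were above it, 2 below it and 1 equal (median 0.21).

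**Figure D4:**
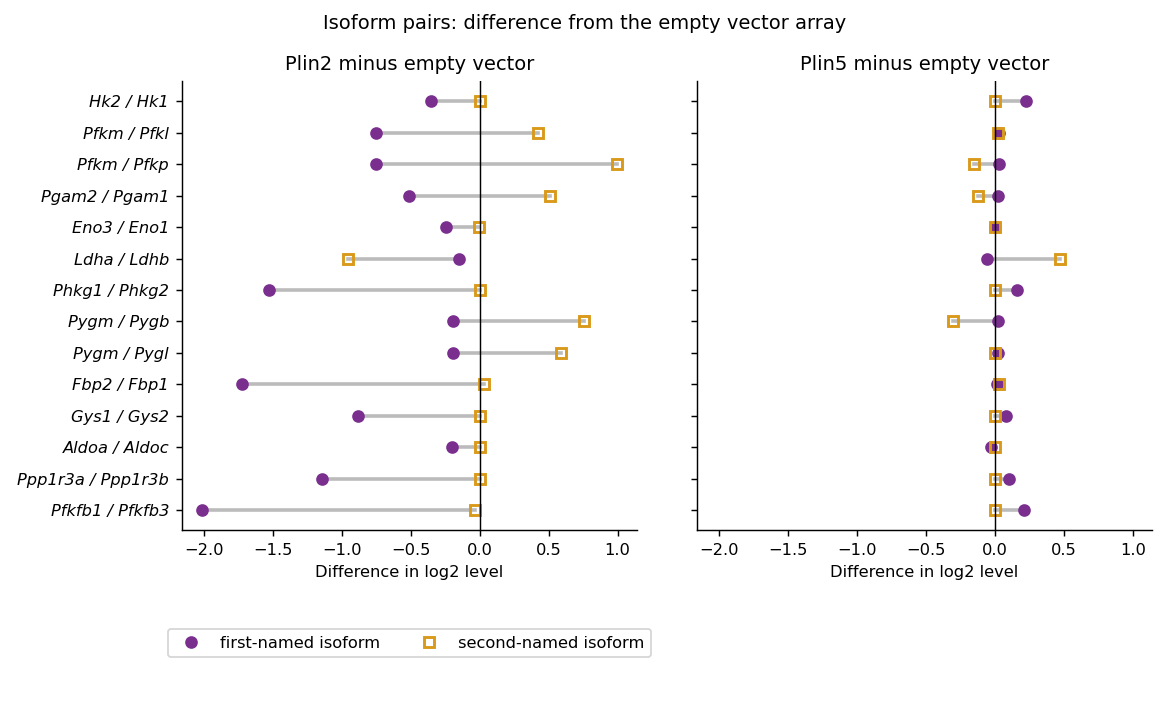
Difference in log2 level from the empty vector array (x axis) for 14 isoform pairs, with the first-named isoform, muscle-type in all but the Pfkfb1 / Pfkfb3 pair, as filled circles and the second-named as open squares, joined by a grey line. With Plin2 the circles lie left of the squares in every pair but Ldha / Ldhb, and with Plin5 the 2 symbols of a pair are at most 0.53 apart.

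A hexokinase of immune cells moved in the same comparison. Hk3, the hexokinase of white blood cells, stood at 6.17 with the empty vector, 7.50 with Plin2 and 6.18 with Plin5 (1.33 on Plin2), beside the higher macrophage and lymphocyte markers given above. Regeneration markers were higher on Plin2 as well. The part of immune cells or of regenerating muscle in the higher Pfkl, Pfkp, Pgam1, Pygb and Pygl values was not tested. On the Plin5 array 12 of 14 macrophage, 7 of 12 lymphocyte and 7 of 7 regeneration markers were below the empty vector. There Pygb (−0.31), Pfkp (−0.15) and Pgam1 (−0.12) were below the empty vector, and Pfkl (0.02), Hk3 (0.01) and Pygl (0.00) were not.

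The isoforms also differed in the DNA around their transcription starts, a property that the arrays did not measure. The windows of a phosphoglycerate mutase pair and a phosphofructokinase pair are shown because their isoforms lay on opposite sides of the empty vector on the Plin2 array. Each runs from 250 bases before to 50 bases after a RefSeq start (build GRCr8), 5′ to 3′ along the gene. Capitals mark matches, on either strand, to the GC box GGGCGG, the TATA box TATAAA, the palindromic E box CACGTG, the wider E box palindrome TCANNTGA or the palindromic core of the MEF2 motif; matches may overlap. Pgam2 lies at chr14:84897825-84898124, minus strand, Pgam1 at chr1:250672902-250673201, plus strand, Pfkm at chr7:131113849-131114148, plus strand, and Pfkp at chr17:68639563-68639862, plus strand.
Pgam2: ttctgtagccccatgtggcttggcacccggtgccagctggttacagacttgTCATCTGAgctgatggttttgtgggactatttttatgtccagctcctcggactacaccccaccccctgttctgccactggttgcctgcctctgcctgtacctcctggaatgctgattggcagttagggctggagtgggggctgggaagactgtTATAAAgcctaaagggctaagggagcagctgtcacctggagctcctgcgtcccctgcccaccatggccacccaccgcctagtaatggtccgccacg
Pgam1: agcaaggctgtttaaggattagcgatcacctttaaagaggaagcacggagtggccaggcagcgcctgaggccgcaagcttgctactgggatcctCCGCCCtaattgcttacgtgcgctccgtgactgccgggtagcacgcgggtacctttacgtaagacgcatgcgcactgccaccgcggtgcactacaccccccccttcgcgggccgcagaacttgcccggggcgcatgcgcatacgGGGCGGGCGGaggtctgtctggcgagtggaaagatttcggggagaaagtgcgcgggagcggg
Pfkm: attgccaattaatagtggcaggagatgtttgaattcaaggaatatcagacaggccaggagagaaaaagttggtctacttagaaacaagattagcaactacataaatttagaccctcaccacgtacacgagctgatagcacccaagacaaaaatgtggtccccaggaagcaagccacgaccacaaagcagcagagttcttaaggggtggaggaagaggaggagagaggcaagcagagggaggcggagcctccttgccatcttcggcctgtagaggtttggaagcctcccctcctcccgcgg
Pfkp: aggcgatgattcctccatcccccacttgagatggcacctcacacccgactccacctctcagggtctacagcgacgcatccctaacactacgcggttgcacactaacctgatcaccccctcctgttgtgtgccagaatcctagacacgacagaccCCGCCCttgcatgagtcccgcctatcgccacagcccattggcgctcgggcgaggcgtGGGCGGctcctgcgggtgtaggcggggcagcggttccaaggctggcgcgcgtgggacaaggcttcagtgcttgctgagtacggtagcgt

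Pgam2 (58.0% G and C) held a TATAAA and a TCANNTGA match and no GC box, whereas Pgam1 (63.3%) held 3 GC boxes, the last pair overlapping, and neither of the others. Pfkm (50.3%) had no match in this window to any motif searched, and Pfkp (63.0%) held 2 GC boxes. Over all members with a window, GGGCGG was found for 1 of 9 muscle isoforms (Gys1) and for 6 of 6 ubiquitous or other-tissue isoforms on the lists. Some genes have more than 1 window. Counted by window this was 1 of 9 and 6 of 8, beside 33.1% of all 33469 windows of this length. With Aldoa and Ldha, which were not on the muscle list and both hold GGGCGG, the count for muscle isoforms was 3 of 11 genes and 3 of 13 windows. The median G and C content was 51.7% in the windows of the muscle isoforms, 63.2% in those of the other isoforms and 51.7% in all windows. With Aldoa and Ldha the median for muscle isoforms was 58.0%, so the contrast depends on which genes are listed. By the size of the Plin2 difference, a GC box was found for 6 of the 11 genes with a window that were lower by at least 1.5-fold, and for 12 of the 17 others. The remaining motifs were sparse. TATAAA was found in 5 of the 34 member windows (14.2% of all windows), CACGTG in 4 (6.42%), TCANNTGA in 3 (7.76%) and the MEF2 core in 3 (3.84%). CANNTG, which contains every CACGTG and is part of every TCANNTGA, was found in 22 of 34 (72.1% of all windows). It was not put in capitals on its own. A match is a run of letters and not evidence of a bound factor, and 1 gene can have starts outside these windows.

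Many of these genes had bright probe sets. Of the 31 genes, 21 were in the brightest 10% of all genes. The 8 genes with a mean log2 level of 13 or more (Gpi, Aldoa, Tpi1, Gapdh, Pgam2, Eno3, Ldha and Pygm; a limit chosen after the values were seen) had Plin2 differences between −0.51 and −0.01, and none passed 1.5-fold. None of all 44 genes at that level did so in either direction, and the median of all 44 was −0.16. Between 12 and 13, 4 of 7 members and 11.7% of 188 genes were lower by at least 1.5-fold. Between 10 and 12, 5 of 6 members and 14.1% of 1439 genes were lower, and under 10, 5 of 10 members and 4.41% of 9208 genes. Without the 8 brightest, the median over the members was −0.74. Array signals are known to flatten near their ceiling; how far that holds for these 8 genes was not tested, and their small differences cannot be read as equal amounts of RNA.

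**Figure D5:**
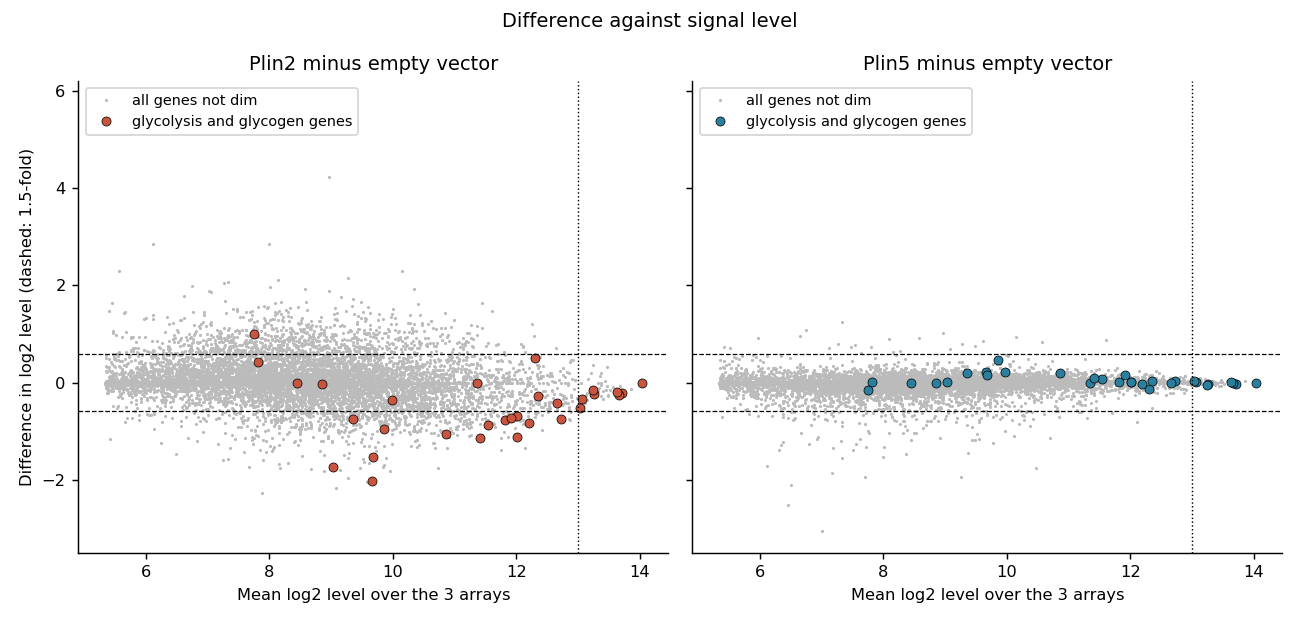
Difference in log2 level from the empty vector array (y axis) against the mean log2 level over the 3 arrays (x axis) for all 10879 genes past the dim filter (grey) and the 31 glycolysis and glycogen genes (coloured); dashed lines mark 1.5-fold and the dotted line a level of 13. To the right of the dotted line no gene passes 1.5-fold in either panel.

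On the Plin5 array the pathway stood close to the empty vector. This array is compared with the same empty vector array as Plin2, so the differences share its error. None of the 31 genes differed by 1.5-fold; among all genes 1.42% were lower and 0.221% higher by that amount. The median over the members was 0.01, against 0.00 over all genes. Ldhb, given above, was the only member past 1.2-fold, a size at which 1.52% of all genes were higher and 5.71% lower. After Ldhb came Hk2 (0.22), Pfkfb1 (0.21), Phkb (0.19), Gbe1 (0.19), Phkg1 (0.16) and Ugp2 (0.15), and the lowest was Pfkp (−0.15).

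The glycogen genes nevertheless leaned one way on this array. All 10 measured were above the empty vector, by 0.00 to 0.19 (median 0.09), where 25.8% of all genes were above it and 40.2% were exactly equal. Of the 21 other members 9 were above, 7 below and 5 equal, and 34.0% of all genes were below. Fibre markers leaned the same way, so the lean was not particular to the glycogen genes. Of 11 fast fibre markers 9 were above and 2 below (median 0.02), and of 8 slow fibre markers 7 were above and 1 below (median 0.29). In size the differences of the glycogen genes, at most 1.14-fold, are far below those of the Plin2 array. The count was 9 of 10 after quantile normalization (Phka1 −0.03) and after a loess correction for level (Pgm1 just under 0), and with 1 array a group their error is not known. Between the perilipin arrays the gap was widest for Pfkfb1 over the probe sets used here (the other Ldha set stood at 48.2-fold), which was 4.68-fold higher with Plin5 than with Plin2, followed by Fbp2 (3.35-fold) and Phkg1 (3.23-fold). Most of each gap came from the low Plin2 value.

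Genes on either side of the pathway were taken from listed groups. Of 9 measured carriers of glucose, lactate and pyruvate, 4 were lower and 1 was higher by at least 1.5-fold on Plin2, and none differed by that amount on Plin5. Among all genes past the dim filter, 5.8% were lower and 8.84% higher on Plin2. In the brightest 10% of all genes, 13.9% were lower and 8.06% higher. The same shares apply to the counts of the other related genes below. Slc2a4, the insulin-responsive glucose carrier Glut4, stood at 11.33 with the empty vector, 10.38 with Plin2 and 11.42 with Plin5 (−0.95 on Plin2), while the ubiquitous carrier Slc2a1 stood at 8.23, 9.50 and 8.32 (1.27). These glucose carriers thus lay on opposite sides of the empty vector. Slc16a3, which exports lactate from fast fibres, stood at 12.22, 10.83 and 12.20 (−1.38), and the pyruvate carrier subunits Mpc1 (10.45, 9.59 and 10.56) and Mpc2 (11.18, 10.25 and 11.38) were lower by 0.86 and 0.93 on the log2 scale.

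Of 11 measured genes of glycogen turnover and its control, 3 were lower by at least 1.5-fold on Plin2 and none was higher. They were Epm2a (laforin, a glycogen phosphatase; 8.97, 8.18 and 9.21, −0.79), Prkaa2 (11.75, 10.99 and 11.83, −0.76) and Prkag3 (11.44, 10.83 and 11.26, −0.62), subunits of AMP-activated kinase. The kinases of glycogen synthase, Gsk3a (−0.20) and Gsk3b (−0.10), were close to the empty vector. Of 18 other isoforms and related enzymes measured, 4 of them dim, 2 related enzymes, Bpgm (−0.96) and Gpd2 (−0.63), were lower by at least 1.5-fold. The isoforms Hk3, Pygb and Pygl were higher by that amount. Among 12 transcription factors measured, Mlxipl, the glucose-responsive factor ChREBP, was the lowest (9.21 with the empty vector, 7.44 with Plin2 and 9.39 with Plin5, −1.77). Ppargc1a (−0.76) and Esrra (−0.60), regulators of mitochondrial genes, were also lower, and Hif1a, the hypoxia-inducible factor, was higher (9.62, 10.41 and 9.79; 0.79). By at least 1.5-fold, 3 of the 12 factors were lower and 1 was higher, the latter near the share of all genes. On Plin5 none of these related genes passed 1.5-fold, a size at which 1.42% of all genes were lower and 0.221% higher.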

How the data were processed

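Processing notes of the submitters name RMA, without a version, as the method behind the values, and the table was taken as log2 expression as deposited; the log base is not stated in it and was inferred from its range. This method subtracts background, gives every array the same distribution of probe intensities and combines each set's probes by median polish. Exactly equal values between arrays were frequent. The chip description and genome build were not given in the sources used here. Per the labels' protocols, each array held RNA pooled in equal amounts from 6 rats, with an RNA integrity number above 8, and 100 ng entered labelling.

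Of 29214 probe sets, only the 15310 that the platform annotation pairs with 1 symbol were used; 323 carried more than 1 symbol and 13581 were absent from it. For each of 14506 genes the set with the highest mean was kept, and genes with a mean under the 25th percentile (5.34) were called dim. All 31 measured members had the same symbol in the RefSeq table through their Entrez number. Differences are log2 values of 1 array minus another, counted at 1.5-fold. With 1 array a group there was no test. Members and gene lists were chosen with earlier results of these data known. Every member was named; related genes were named at 1.5-fold (at most 4 each way per list) or in an isoform pair. Gsk3a and Gsk3b were named beyond this rule, after their values were seen. Of 32 members, 29 had RefSeq promoter windows (34 in all). Protein identities, which had been planned, were not computed. Counts and corrections were checked on simulated data, in which randomly chosen genes were raised on the Plin2 array and independent noise was added. That simulation had no signal ceiling and no exactly equal values. It checks the calculations and not the error of these counts. The alternatives changed the choice of probe set, the scaling (centring, quantile, or loess on level with span 0.3), the dim filter and the fold. Fibroblast markers (9 measured) had a median Plin2 difference of 0.14, endothelial markers (7) 0.00 and erythroid markers (3) −0.52. Computations used pandas 2.3.3, numpy 2.4.6 and statsmodels 0.14.6 under Python 3.11.15, and figures matplotlib 3.10.9.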

Additional observations from a re-analysis of the deposited data

Results flagged for a closer look

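Ldhb lay on opposite sides of the empty vector array, at −0.96 with Plin2 and 0.47 with Plin5, each past 1.2-fold. It was the only measured member to do so. Both values share the empty vector array, each rests on 1 array, and the difference between them was not tested.

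The second probe set named Ldha, which was not the one used for the gene, stood −5.57 below the empty vector on the Plin2 array. The first set stood at −0.15, and the second set at 0.02 on the Plin5 array.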

How the results depend on the processing

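The Plin2 count of 14 members lower and the medians of both comparisons kept their side under centring, quantile normalization, a loess correction, averaged probe sets and the removal of equal values; no member was dim. At 2-fold, 6 members were lower and 0 higher on Plin2. At 1.2-fold 3 were higher on Plin2 and 1 on Plin5, and quantile normalization gave 2 higher on Plin2. Restricting the Plin2 median to members with a mean level under 13, an alternative chosen after seeing the data, gave −0.74. The gap of Ldha against Ldhb on Plin2 turned from 0.81 to −1.90 with averaged probe sets and to −4.60 with the set brightest on the empty vector array, also added after seeing the data; Ldha was the only member whose set changed by that choice. Quantile normalization moved 5 of 31 Plin2 member differences and 7 of 14 Plin2 isoform gaps by over 0.1; the first-named isoform was still the lower in 13 of 14 pairs. Background percentages at 1.5-fold stayed within 1.5 times without the dim filter or with it at the median. No paired analysis was possible because each group is 1 array. Leaving out a replicate was not possible for the same reason. No gene with a mean level of 13 or more passed 1.5-fold, and whether signal compression has a part in that was not tested.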
